A study of Mus musculus with 9 samples.

Results

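The 50 genes described here encode the machinery that copies DNA in S phase: origin recognition and licensing factors, the replicative helicase and its activators, the polymerases, the sliding clamp and its loader, Okazaki fragment enzymes, single-strand binding proteins and ribonucleotide reductase. They were taken by symbol from the deposited count table of 45706 gene identifiers, and all 50 were found and passed the filter on low counts, among 17971 genes tested. RNA was sequenced from central nervous system of C57BL6/J mice at 3 ages, and the labels name no treatment or allele. The groups were E9.5 (embryonic day 9.5, severed heads trimmed toward the neuroectoderm), E14.5 (a later embryonic day by the same scale, brain freed of meninges) and P60 (postnatal day 60, adult brain after saline perfusion). Each age had 3 libraries of whole tissue, with no sorting of cells. The labels do not state that the 3 came from different animals, and p-values therefore rest on a spread that may be technical. Libraries held 30481975 to 35619093 counts. E9.5 replicate 1 stood apart in 4 genes of heart and embryonic muscle, with 130 CPM (counts relative to the library's total) of Actc1, against 2.95 and 2.90 CPM in the other E9.5 libraries, and 44.3 CPM of Myl7, against 1.33 and 1.12 CPM. Without that library 47 of the replication genes were called lower at E14.5 against E9.5 and 47 at P60 against E9.5, where 48 were in each with it. The gene no longer called was Pole3 at E14.5 (-0.47, adjusted p = 0.11 in edgeR's quasi-likelihood test) and Gins4 at P60 (-0.46, adjusted p = 0.10).

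Replication is prepared in G1, when the origin recognition complex, Cdc6 and Cdt1 load the inactive Mcm2-7 ring onto DNA. It starts in S phase, when the Cdc7-Dbf4 and cyclin-dependent kinases bring Cdc45 and GINS onto the ring, and the polymerases follow on a Pcna clamp placed by the Rfc loader. In the developing brain these proteins work in dividing progenitors of the ventricular zones, whereas most neurons of the adult brain have left the cell cycle. Several of the proteins also serve DNA repair or chromatin, which continue in cells that no longer divide.

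Levels are CPM, a gene's counts relative to all counts of its library, scaled by the TMM method, and changes are fitted log2 fold changes ± SE from edgeR, called at a Benjamini-Hochberg adjusted p of 0.05 or less over all genes tested. Against E9.5, nearly the whole set was lower at each later age, but to very different depths. At E14.5 against E9.5, 48 of the 50 genes were called lower and 0 higher, with a median log2 fold change of -1.76, where 30.7% of all genes tested were called lower around a median of 0.03 and 64.6% were called in either direction. The 2 genes not called were Orc4 and Pole4. A fall of at least 2-fold was called for 43 of the replication genes, against 18.1% of all genes, and of at least 4-fold for 20, against 5.94%. The E14.5 libraries lay below all E9.5 libraries for 48 genes, an order that 35.1% of all genes showed.

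At P60 against E14.5, 41 genes were called lower and 5 higher, with a median of -1.89, where 39.4% of all genes were called lower, 36.7% were called higher, 76.1% in either direction, and the median was -0.06. The 5 higher genes were Orc4, Orc5, Gins4, Pole4 and Rpa1, and the 4 not called were Orc2, Orc6, Pole3 and Rpa3. Falls of at least 2-fold numbered 32, against 29.7% of all genes, and falls of at least 4-fold numbered 25, against 15.4%. This comparison and the one before it use the same E14.5 libraries, so their values are set side by side below and were not tested against each other. Only Orc5 and Rpa1 were called higher under every alternative scaling, filter, model and left-out library tried.

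Over the whole interval, P60 against E9.5, 48 genes were called lower and 0 higher, with a median of -3.28, where 40.6% of all genes were called lower, 42.0% higher and 82.6% in either direction, around a median of 0.05. Orc4 and Pole4 were again the 2 not called. Falls of at least 2-fold numbered 45, against 32.5% of all genes, and falls of at least 4-fold numbered 37, against 19.8%. The mean CPM at P60 as a percentage of the mean at E9.5 ran from 0.0797% for Ticrr to 132% for Pole4, with a median of 10.3%. It was under 1% for 6 genes (Ticrr, Rrm2, Mcm10, Cdc6, Pole and Mcm3), from 1 to under 10% for 19, from 10 to under 50% for 20, and at least 50% for 5 (Orc3, Orc4, Orc5, Gins4 and Pole4). By role, the median was 1.32% for Cdc6, Cdt1 and Gmnn, 2.21% for Mcm2-7, 3.34% for ribonucleotide reductase, 4.47% for helicase activation, 15.6% for polymerases and primase, 15.9% for clamp and loader, 44.7% for RPA and 48.5% for the origin recognition complex.

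**Figure D1:**
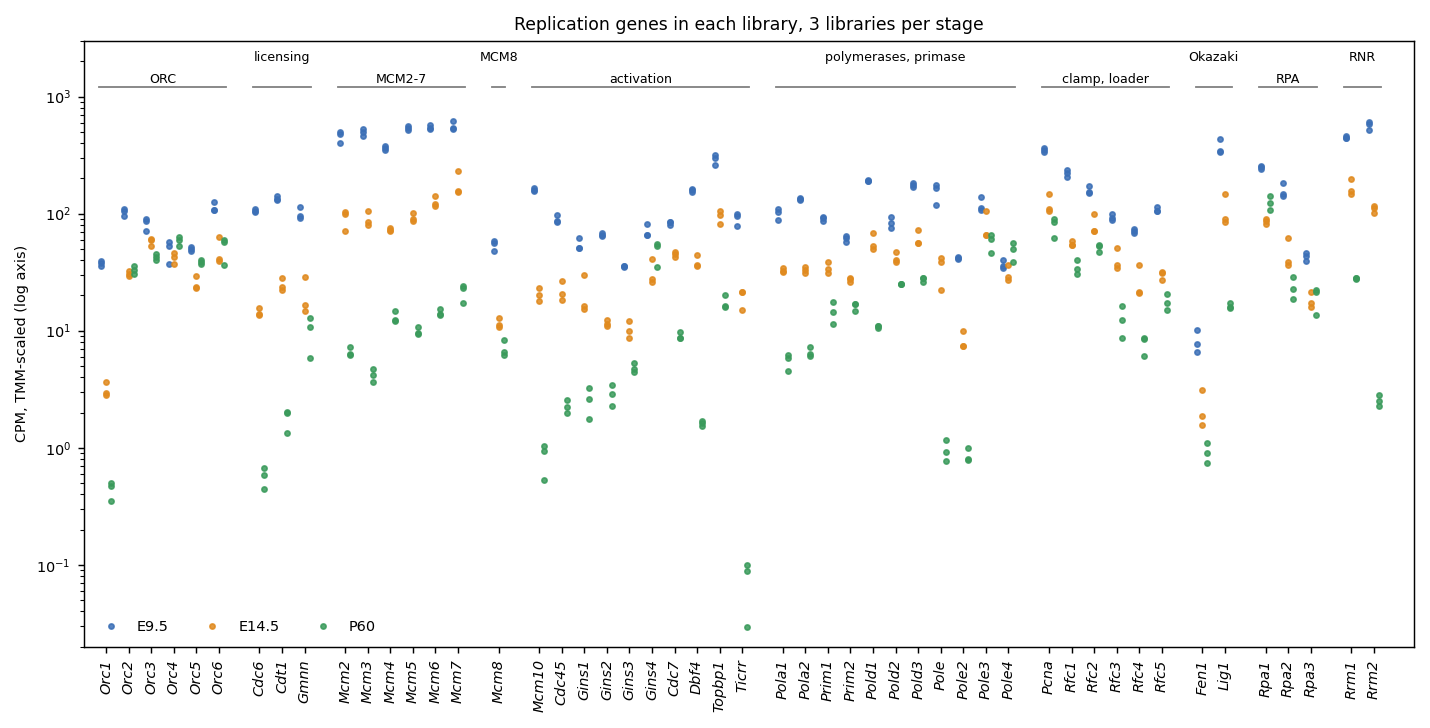
CPM of each of the 50 replication genes (log axis) in the 9 libraries, 1 point per library, at E9.5, E14.5 and P60 from left to right within a gene and grouped by role. The P60 points lie lowest for Ticrr, Orc1 and Cdc6, whereas for Orc4 and Pole4 2 of the 3 P60 points lie above every embryonic point, and for Gins4 all 3 lie within the embryonic range.

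**Figure D2:**
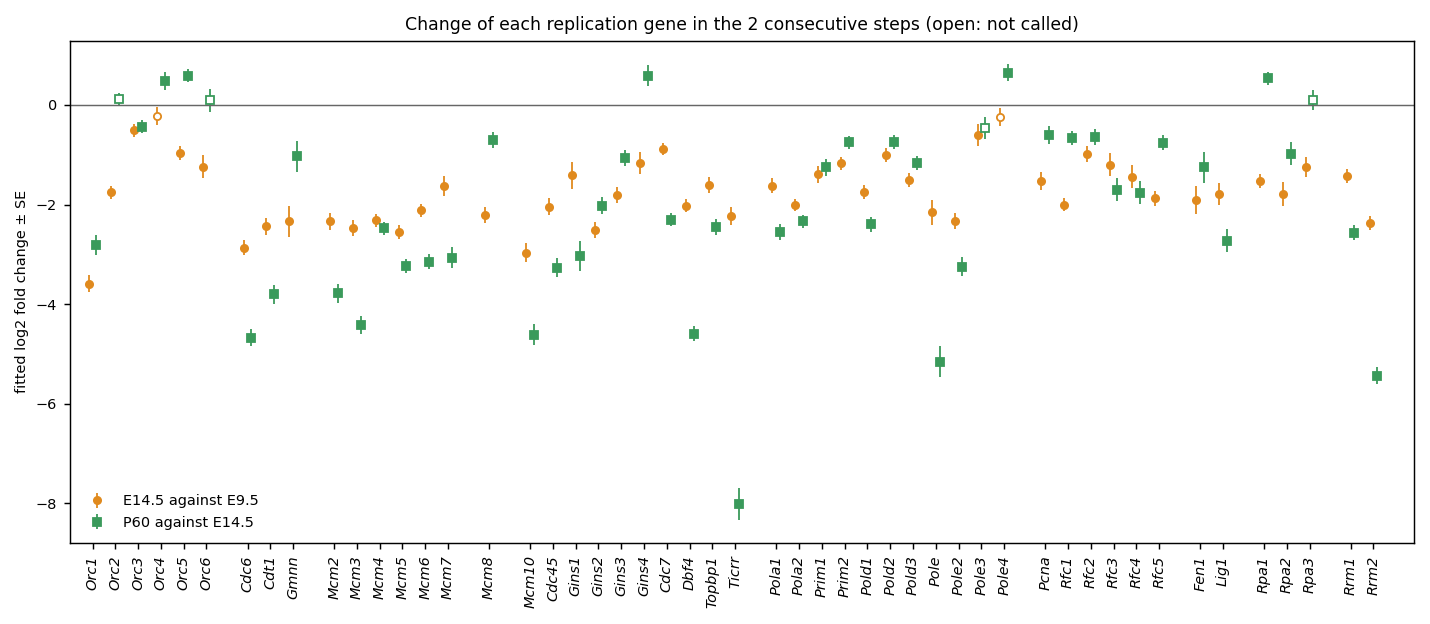
Fitted log2 fold change ± SE of each replication gene at E14.5 against E9.5 (circles) and at P60 against E14.5 (squares), with genes not called drawn open. At E14.5 all 50 values lie below 0, whereas at P60 the squares spread from -8.01 for Ticrr to 0.65 for Pole4.

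The tissue itself differed between ages. The 6 progenitor markers (Sox1, Sox2, Nes, Hes5, Pax6 and Vim) summed to 1346 to 1617 CPM at E9.5, 1420 to 2029 CPM at E14.5 and 112 to 142 CPM at P60. At E14.5 against E9.5, Vim was called higher (0.57 ± 0.18, adjusted p = 0.017) and the other 5 were not called, with fold changes between -0.28 and 0.23. The 6 neuron markers summed to 206 to 233, 4516 to 5438 and 5843 to 6477 CPM at E9.5, E14.5 and P60, and the 6 oligodendrocyte markers to 60.8 to 62.7, 64.0 to 88.6 and 13567 to 15867 CPM. The 6 astrocyte markers summed to 35.5 to 40.1, 371 to 485 and 4079 to 4114 CPM, the 6 microglia markers to 20.4 to 23.0, 60.5 to 68.4 and 415 to 441 CPM, and the 5 endothelial markers to 204 to 237, 222 to 253 and 150 to 170 CPM. Members of a list did not always move together. At P60 against E14.5, Stmn2, Tubb3 and Map2 were called lower (-0.38, -2.08 and -0.75) and the neuron markers Rbfox3, Snap25 and Syt1 higher (0.91, 4.93 and 2.68). Among the endothelial markers at P60 against E9.5, Cldn5 was called higher (1.84) and Kdr and Cdh5 lower (-3.0 and -2.38). Pecam1 and Flt1 were not called. The microglia sum at E9.5 was mostly Tmem119 (18.4 to 19.3 CPM), which was called lower at E14.5 (-2.37), whereas the rest of that list was called higher. Genes listed as markers of cells outside the nervous system also moved with age. The 6 erythroid genes summed to 4227 to 5731 CPM at E9.5, 367 to 706 CPM at E14.5 and 5.37 to 18.3 CPM at P60, the 7 mesenchyme and neural crest genes to 631 to 778, 327 to 665 and 72.9 to 123 CPM, and the 5 surface ectoderm genes to 174 to 276, 12.5 to 13.9 and 6.83 to 13.2 CPM. The 4 muscle genes summed to 4.94 to 265 CPM at E9.5, with replicate 1 the highest, 1.58 to 2.56 CPM at E14.5 and 34.4 to 45.3 CPM at P60. In the mesenchyme and neural crest list, the P60 sum was mostly Pdgfra and Sox10. At P60 against E14.5, Sox10 was called higher (2.99) and Pdgfra was not called (0.4), whereas the rest of that list was called lower. At E14.5 against E9.5, Col1a1 was called higher (1.34) and the rest lower. Whether that P60 sum came from cells outside the nervous system was not tested. Every marker of the lists above had reads at each age except Foxd3, which was at 0 at P60. The part of these cells, which also divide, in the replication genes' levels was not tested, and in whole tissue fewer dividing cells and less RNA per cell cannot be told apart.

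Promoters are shown because a sequence that the choice of genes did not use stood in a larger share of those matched than of all promoters, although most of the matched genes lacked it. RefSeq promoters (GRCm38.p6, 250 bases before to 50 after the start) were matched for 42 of the 50 genes. Prim2, Gins1, Gins2, Gins4, Gmnn, Mcm4, Rfc2 and Pole had no match. Both strands were searched for the E2F letters TTTCCCGC, TTTGGCGC, TTTCGCGC and TTTGCCGC, the core that E2F transcription factors are known to bind. At least 1 of them stood in the promoters of 18 of the 42 genes (42.9%), against 2.60% of all 27025 genes with a promoter, 4.26% of the 12946 tested genes with one, and 2.26% of all 32851 promoters of that length. The letters stood in 4 of 5 matched Mcm2-7 genes (Mcm3, Mcm5, Mcm6 and Mcm7), in Cdc6 and Cdt1, in Orc1 and Orc3, in Mcm8, Gins3, Topbp1, Rfc3 and Lig1, and in 5 of 9 polymerase genes (Pola1, Pold1, Pold3, Pole2 and Pole4). They were in none of the 3 RPA genes, in neither ribonucleotide reductase gene and not in Ticrr, Mcm10, Dbf4, Cdc45 or Cdc7. The windows below are those of 6 genes with the letters that fell strongly and of Pole4, which has them and was not called lower. Ticrr, Rrm2 and Mcm10, which stood at under 1% of E9.5 at P60, lack the letters and have no window. They are given 5′ to 3′ on the strand of the gene and stop at most 30 bases after the start. Capitals mark the E2F letters, on either strand, and overlapping matches run together. The windows lie at chr11:98907968-98908065 for Cdc6 (plus strand), chr4:108579382-108579479 for Orc1 (plus), chr1:20820283-20820338 for Mcm3 (minus), chr8:75109311-75109408 for Mcm5 (plus), chr1:128359763-128359860 for Mcm6 (minus), chr12:69228161-69228225 for Pole2 (minus) and chr6:82652856-82652953 for Pole4 (minus).
Cdc6: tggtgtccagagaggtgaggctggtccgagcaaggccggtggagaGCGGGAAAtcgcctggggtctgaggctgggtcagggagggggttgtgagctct
Orc1: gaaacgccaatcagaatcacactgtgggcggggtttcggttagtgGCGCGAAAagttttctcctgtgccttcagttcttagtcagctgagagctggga
Mcm3: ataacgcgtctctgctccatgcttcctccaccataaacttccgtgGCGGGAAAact
Mcm5: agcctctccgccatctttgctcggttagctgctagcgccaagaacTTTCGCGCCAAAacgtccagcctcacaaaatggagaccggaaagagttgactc
Mcm6: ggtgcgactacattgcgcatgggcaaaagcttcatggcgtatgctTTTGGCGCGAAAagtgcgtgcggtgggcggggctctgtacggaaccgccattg
Pole2: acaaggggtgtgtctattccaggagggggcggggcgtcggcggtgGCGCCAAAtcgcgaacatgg
Pole4: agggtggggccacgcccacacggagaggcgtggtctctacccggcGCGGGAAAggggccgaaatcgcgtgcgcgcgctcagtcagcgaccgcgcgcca
In Cdc6, Orc1, Mcm3, Pole2 and Pole4 the capitals are a match on the other strand, and in Mcm5 and Mcm6 matches on both strands overlap. The median log2 fold change at E14.5 against E9.5 was -1.79 for the 18 genes with the letters and -1.64 for the 24 without. It was -2.64 with and -1.12 without at P60 against E14.5, and -4.34 with and -2.72 without at P60 against E9.5, a description with no test. Base composition differed too, with a median of 62.3% G and C in the replication promoters, 60% in those of tested genes and 52.7% in all. The CCAAT box (CCAAT, both strands) stood in 59.5% of the 42 genes, against 42.0% of tested genes, and the CHR letters (TTTGAA or TTCGAA, both strands) in 21.4%, against 16.4%.

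The origin recognition complex marks the sites where replication can start. Its subunits parted: at P60 Orc1 stood at 1.16% of its E9.5 level, whereas Orc4 and Orc5 stood at 119% and 77.2%. Orc1, the ATPase that in mammals is itself regulated through the cell cycle (chromosome 4, 108579423 to 108614833, GRCm38), had 35.7, 39.7 and 37.9 CPM at E9.5, 2.83, 2.91 and 3.65 CPM at E14.5 and 0.467, 0.352 and 0.501 CPM at P60. No library of any age overlapped another age. Its fold change was -3.59 ± 0.17 at E14.5 against E9.5 (adjusted p = 3.7e-08), the largest fall of the 50 genes in that step, and -2.82 ± 0.20 at P60 against E14.5 (adjusted p = 4.1e-07). Orc4, an AAA+ subunit of the core (chromosome 2, 48902824 to 48950277), had 37.3, 53.1 and 57.6 CPM at E9.5, 36.9, 43 and 46.5 CPM at E14.5 and 60, 53.0 and 63.0 CPM at P60. The P60 libraries lay above those of E14.5 and overlapped those of E9.5. The rise at P60 against E14.5 was 0.48 ± 0.18 (adjusted p = 0.029), and it was not called under library totals (0.34, adjusted p = 0.12) or without E14.5 replicate 1 (adjusted p = 0.081), E14.5 replicate 2 (0.064), P60 replicate 1 (0.085) or P60 replicate 3 (0.091). Orc5, the next AAA+ subunit, had 47.6, 49.6 and 52.3 CPM at E9.5, 29.5, 23.3 and 23.7 CPM at E14.5 and 38.3, 37.1 and 40 CPM at P60. The 3 ages did not overlap, with E14.5 lowest. Orc5 fell at E14.5 (-0.97 ± 0.14, adjusted p = 9.2e-05) and rose at P60 against E14.5 (0.59 ± 0.13, adjusted p = 0.002). Its fall at P60 against E9.5 (-0.37 ± 0.13, adjusted p = 0.023) was not called under upper quartile scaling (-0.22, adjusted p = 0.16), without a filter (-0.27, 0.16), under scaling by exon length (-0.08, 0.63), or without E9.5 replicate 2 (0.056), E9.5 replicate 3 (0.078) or P60 replicate 1 (0.063).

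Orc2 and Orc6 fell in the embryo and were not called between E14.5 and P60. Orc2, a core subunit that contacts the ATPase ring, had 95.5, 109 and 106 CPM at E9.5, 32.3, 30.5 and 29.4 CPM at E14.5 and 35.5, 33.2 and 30.8 CPM at P60. The later ages overlapped each other and lay below E9.5 (-1.75 ± 0.13 at E14.5, adjusted p = 6.3e-07, and 0.11 ± 0.12 at P60 against E14.5, adjusted p = 0.44). Orc2 shares 1150 exon bases with Nif3l1 on the opposite strand, and with the strand setting not given in the sources used here the reads of the 2 genes cannot be told apart. Orc6, the subunit outside the ATPase ring, had 125, 107 and 108 CPM at E9.5, 63.2, 39.5 and 41.1 CPM at E14.5 and 56.9, 36.2 and 59.6 CPM at P60. E14.5 and P60 overlapped, with 1 library at E14.5 high and 1 at P60 low (0.09 ± 0.23, adjusted p = 0.73). Leaving out those libraries and E9.5 replicate 1 together, a choice made after seeing the data, gave a rise of 0.50 for Orc6. Because it removed the high E14.5 and the low P60 library, that fit is no test of a rise. Scaling by exon length, also chosen after seeing the data, gave -0.36 (adjusted p = 0.063). Orc3 fell mildly in both steps (-0.51 ± 0.13 and -0.44 ± 0.13, adjusted p = 0.0066 and 0.012), and the second fall was not called under upper quartile scaling (-0.27, adjusted p = 0.084), without P60 replicate 1 (-0.40, 0.053) or under scaling by exon length (-0.11, 0.42). Per kilobase of exon, the highest subunit exceeded the lowest 6.95-fold at E9.5, 21.6-fold at E14.5 and 163-fold at P60. Orc1 made up 9.71 ± 0.389% of the summed level per length of the 6 subunits at E9.5, 1.91 ± 0.391% at E14.5 and 0.249 ± 0.0155% at P60 (SD, n = 3).

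The licensing factors fell steeply, and the inhibitor Gmnn less far than its target. Cdc6, the ATPase that joins the origin complex to load Mcm2-7 (chromosome 11, 98907801 to 98923940), had 103, 109 and 106 CPM at E9.5, 14.0, 13.6 and 15.7 CPM at E14.5 and 0.666, 0.440 and 0.589 CPM at P60. Cdt1, the partner that delivers the ring, had 141, 133 and 131 CPM at E9.5, 28.3, 22.3 and 23.7 CPM at E14.5 and 2.03, 1.97 and 1.33 CPM at P60. Both were separated between all ages. Cdc6 fell in both steps (-2.87 ± 0.15, then -4.67 ± 0.18, adjusted p = 5.3e-08 and 8.2e-09), and so did Cdt1 (-2.44 ± 0.17, then -3.80 ± 0.19, adjusted p = 4.3e-07 and 3.9e-08). Gmnn, geminin, which binds Cdt1 and blocks relicensing, had 115, 94.6 and 92.0 CPM at E9.5, 28.5, 14.7 and 16.5 CPM at E14.5 and 10.8, 5.81 and 12.8 CPM at P60. The ages did not overlap, and Gmnn fell in both steps (-2.34 ± 0.31, then -1.03 ± 0.31, adjusted p = 6.2e-05 and 0.010).

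All 6 subunits of the helicase ring fell in both steps, in which 30.7% and 39.4% of all genes tested were called lower. No subunit overlapped between ages, and their P60 means were 0.842 to 3.86% of the E9.5 means. The later libraries all lay below the earlier for 35.1% of all genes tested at E14.5 against E9.5. That share was 39.4% at P60 against E14.5 and 42.1% at P60 against E9.5. Mcm2, a subunit that also binds histones, had 405, 498 and 479 CPM at E9.5, 71.4, 98.9 and 103 CPM at E14.5 and 6.26, 7.25 and 6.33 CPM at P60. Mcm3, which in yeast contacts the Cdc6-bound origin complex during loading (chromosome 1, 20802968 to 20820312), had 530.0, 495 and 465 CPM at E9.5, 105, 79.8 and 85.2 CPM at E14.5 and 3.63, 4.17 and 4.74 CPM at P60. Of the 6, Mcm3 had the largest fall over the whole interval (-2.47 ± 0.16 in the embryonic step, then -4.42 ± 0.18, adjusted p = 2.8e-07 and 9.6e-09), and its promoter window is among those printed above. Mcm4, a target of the Cdc7 kinase in its tail, had 351, 379 and 365 CPM at E9.5, 75.3, 71.6 and 72.1 CPM at E14.5 and 12.4, 14.6 and 12.2 CPM at P60. Mcm5, one side of the gate through which DNA enters, had 559, 542 and 523 CPM at E9.5, 102, 86.2 and 89.7 CPM at E14.5 and 9.30, 9.54 and 10.7 CPM at P60. The 3 libraries of each age lay close together for both genes, and at P60 against E9.5 Mcm4 fell 27.9-fold and Mcm5 55-fold. Mcm6, the subunit to which Cdt1 binds, had 569, 543 and 529 CPM at E9.5, 142, 116 and 120 CPM at E14.5 and 13.5, 15.2 and 13.9 CPM at P60. Mcm7, an ATPase of the catalytic core, had 613, 537 and 527 CPM at E9.5, 231, 153 and 157 CPM at E14.5 and 23.2, 17.4 and 24.2 CPM at P60. Mcm7 fell least, 25.9-fold at P60 against E9.5, with 1 E14.5 library well above the other 2. Adjusted p-values at P60 against E9.5 lay between 4.2e-10 for Mcm5 and 8.9e-09 for Mcm7.

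Per length the ring was more even at E9.5 than later: the highest subunit exceeded the lowest 2.05-fold at E9.5, 3.11-fold at E14.5 and 5.12-fold at P60. The length is that of all annotated exons of a gene, which can exceed the transcript expressed. Mcm2, the lowest per length at E9.5, has 6956 exon bases, and its mean there was 460 CPM, against 365 CPM for Mcm4 with 3589 bases. The share of Mcm7 in the summed level per length was 18.6 ± 1.11%, 27.2 ± 3.40% and 30.3 ± 4.67% at E9.5, E14.5 and P60, and that of Mcm3 19.5 ± 0.725%, 16.1 ± 0.540% and 6.92 ± 0.730% (SD, n = 3, no test). Mcm7 overlaps the exons of Ap4m1 and Cops6 on the opposite strand by 321 and 64 bases. Mcm8, a relative of the ring that acts in recombination repair, had 47.7, 55.6 and 58.4 CPM at E9.5, 10.7, 11.1 and 12.8 CPM at E14.5 and 6.26, 8.37 and 6.57 CPM at P60. Its ages did not overlap, and it fell in both steps (-2.22 ± 0.16, then -0.71 ± 0.16, adjusted p = 6.6e-07 and 0.002).

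**Figure D3:**
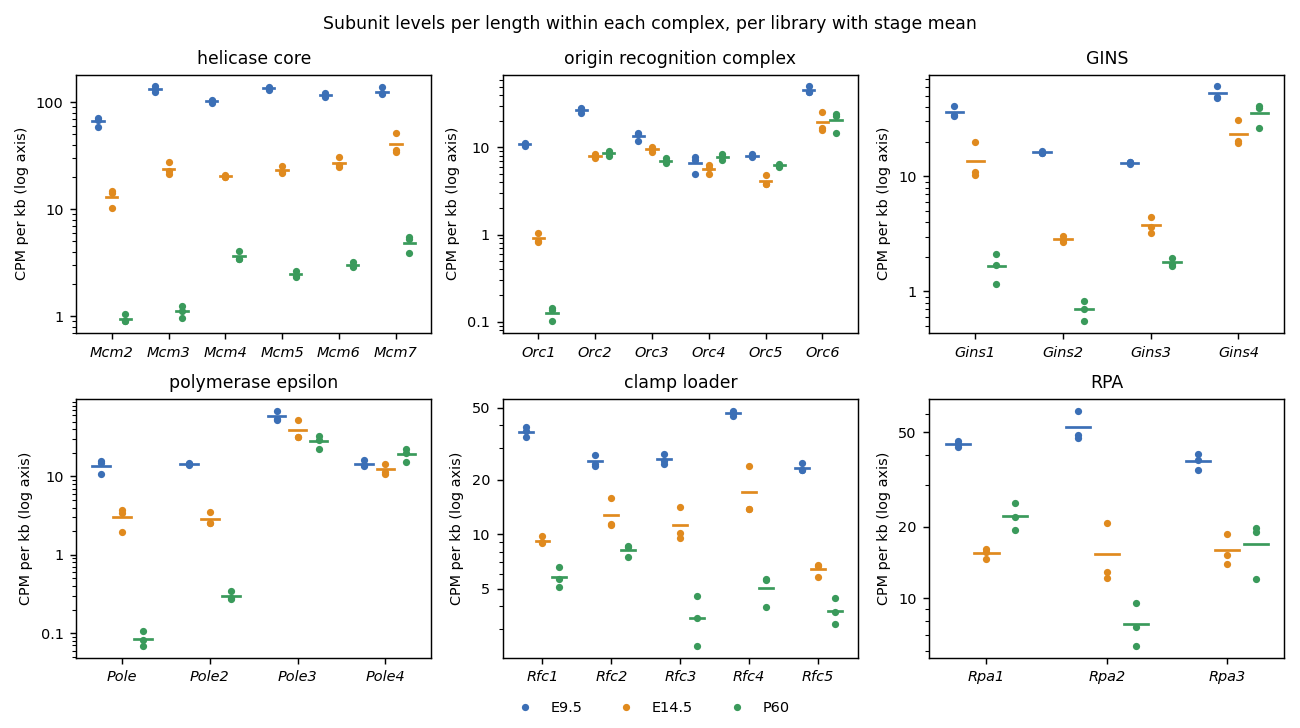
CPM per kilobase of exon (log axis) of each subunit of 6 complexes, 1 point per library and a bar for the stage mean, at E9.5, E14.5 and P60. The subunits of the helicase core all drop at each later age, with highest over lowest going from 2.05-fold at E9.5 to 5.12-fold at P60. Orc1, Gins1 to Gins3, Pole and Pole2 drop away from the other subunits of their complexes.

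Of the 10 genes of helicase activation, all 10 were called lower at E14.5 against E9.5 and 9 were called lower again at P60 against E14.5. Of all genes tested, 30.7% and 39.4% were called lower in these 2 steps. Ticrr, treslin, which with Topbp1 brings Cdc45 to the ring (chromosome 7, 79660196 to 79698148), had 78.1, 100 and 94.7 CPM at E9.5, 15.1, 21.4 and 21.6 CPM at E14.5 and 0.10, 0.0881 and 0.0295 CPM at P60. The ages did not overlap, and few reads remained in the adult: 7 in the 3 P60 libraries, against 2018 at E14.5 and 8324 at E9.5. Scaled by library totals these reads were 300.0-fold lower at P60 than at E14.5 (95% interval 145 to 746, exact, counting error only) and 1317-fold lower than at E9.5 (639 to 3277). Ticrr fell by 2.23 ± 0.19 at E14.5 against E9.5 (adjusted p = 2.1e-06). Gins4, the Sld5 subunit of the 4-part GINS complex (chromosome 8, 23226616 to 23237659), had 81.7, 65.8 and 65.3 CPM at E9.5, 41.3, 27.5 and 26.3 CPM at E14.5 and 52.9, 35.3 and 55.3 CPM at P60. P60 overlapped E14.5, since 1 library of P60 was low and 1 of E14.5 high. The fit called a fall at E14.5 (-1.16 ± 0.22, adjusted p = 8.8e-04) and a rise at P60 against E14.5 (0.59 ± 0.22, adjusted p = 0.030). That rise was not called under library totals (0.46, adjusted p = 0.065) or without E14.5 replicate 2 (0.10), E14.5 replicate 3 (0.11), P60 replicate 1 (0.092) or P60 replicate 3 (0.096), and it turned to -0.16 (0.18) under scaling by exon length. Its fall at P60 against E9.5 (-0.57 ± 0.22, adjusted p = 0.032) was not called under upper quartile scaling (adjusted p = 0.12), without a filter (0.078), in the fit of 2 ages (0.051), or without E9.5 replicate 1 (0.10) or P60 replicate 2 (0.11).

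The other 3 GINS genes fell to 4.61% (Gins1), 4.33% (Gins2) and 13.6% (Gins3) of E9.5 at P60. Per length, Gins4 made up 44.5 ± 1.70% of the 4 subunits at E9.5, 54.0 ± 1.69% at E14.5 and 89.3 ± 1.51% at P60 (SD, n = 3), and the highest subunit exceeded the lowest 4.01-fold, 8.30-fold and 50.8-fold. Gins2 shares 2758 of its 4097 exon bases with Gse1 on the opposite strand, so its counts are uncertain. Mcm10, a scaffold of helicase activation, fell to 0.522% of E9.5 at P60 (-7.58 ± 0.24, adjusted p = 7.3e-10), and Cdc45, which joins the ring at its activation, to 2.52% (-5.30 ± 0.20, adjusted p = 1.8e-09). Cdc7, the catalytic subunit of the initiating kinase, fell in both steps (-0.89 ± 0.12, then -2.31 ± 0.13, adjusted p = 6.5e-05 and 6.8e-08), and so did Dbf4, its activator (-2.02 ± 0.13, then -4.59 ± 0.16, adjusted p = 3.3e-07 and 5.1e-09). Topbp1, which also activates the checkpoint kinase ATR, fell to 5.97% of E9.5 at P60.

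Among the 11 polymerase and primase genes, 10 were called lower at P60 against E9.5, where 40.6% of all genes tested were. Polymerase epsilon, the leading-strand enzyme, held both extremes. Pole, its catalytic subunit (chromosome 5, 110286306 to 110337474), had 118, 174 and 166 CPM at E9.5, 22.1, 38.4 and 42.1 CPM at E14.5 and 0.766, 1.17 and 0.913 CPM at P60. The ages did not overlap, although replicate 1 was the low one of both embryonic ages, and Pole fell in both steps (-2.16 ± 0.25, then -5.16 ± 0.31, adjusted p = 2.3e-05 and 1.3e-07). Pole3, a histone-fold subunit also known from chromatin remodelling complexes, had 139, 112 and 108 CPM at E9.5, 106, 65.3 and 65.5 CPM at E14.5 and 60.3, 45.8 and 66.0 CPM at P60. E14.5 and P60 overlapped. The fall at E14.5 (-0.60 ± 0.22, adjusted p = 0.032) was not called without E9.5 replicate 1 (0.11), E9.5 replicate 2 (0.052), E14.5 replicate 2 (0.12) or E14.5 replicate 3 (0.12), and the difference at P60 against E14.5 was -0.46 ± 0.22 (adjusted p = 0.077). That difference was called under scaling by exon length (-1.14, adjusted p = 5.8e-06), library totals (-0.59, 0.023), the replicate block (-0.43, 0.034), and without E14.5 replicate 2 (-0.59, 0.049), E14.5 replicate 3 (-0.58, 0.049) or P60 replicate 3 (-0.58, 0.05). Pole4, the histone-fold partner of Pole3 (chromosome 6, 82618992 to 82705365), had 40.2, 35.7 and 34 CPM at E9.5, 36.7, 29 and 27.1 CPM at E14.5 and 50.1, 38.5 and 56.5 CPM at P60. P60 lay above E14.5 and overlapped E9.5. In a fit of E14.5 and E9.5 alone with the replicate number as a block, Pole4 was called lower at E14.5 (-0.26, adjusted p = 0.029), and the other 49 calls of that comparison did not change. The rise at P60 against E14.5 was 0.65 ± 0.18 (adjusted p = 0.0063) but 0.19 (adjusted p = 0.16) under scaling by exon length. At P60 against E9.5 the difference was 0.40 ± 0.18 (adjusted p = 0.053), and 9 alternatives called it higher, with values of 0.40 to 0.62 and adjusted p of 1.2e-04 to 0.047. The largest value came from leaving out 1 library of each age. That fit removed the highest E9.5 and the lowest P60 value of Pole4, so it is no test of a rise. Leaving out P60 replicate 2 alone (0.55, adjusted p = 0.0086) also removed the lowest P60 value. Scaling by exon length gave -0.06 (adjusted p = 0.64).

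Pole2, which links the catalytic part of the enzyme to the helicase, fell to 2.07% of E9.5 at P60 (-5.58 ± 0.20, adjusted p = 1.4e-09). Per length the highest of the 4 epsilon subunits exceeded the lowest 4.29-fold at E9.5, 13.5-fold at E14.5 and 330.0-fold at P60. In polymerase delta, the lagging-strand enzyme, Pold1, the catalytic subunit, had 192, 189 and 189 CPM at E9.5, 68.0, 49.9 and 52.9 CPM at E14.5 and 10.5, 10.9 and 11.0 CPM at P60. Pold2, its regulatory subunit, had 94.2, 83.0 and 75.3 CPM at E9.5, 47.4, 40.2 and 38.9 CPM at E14.5 and 25.3, 25.1 and 24.9 CPM at P60. Neither gene overlapped between ages, and at P60 against E9.5 Pold1 fell (-4.14 ± 0.16) and so did Pold2 (-1.74 ± 0.14, adjusted p = 2.1e-09 and 5.0e-07). Pold3, the subunit that binds Pcna, fell to 15.6% of E9.5. In the polymerase alpha-primase complex, which lays the primers, Pola1 and Pola2 fell to 5.53% and 4.90%, and the primase subunits Prim1 and Prim2 to 16% and 26.5%.

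The clamp, its loader and the Okazaki fragment enzymes were all called lower in both steps, in which 30.7% and 39.4% of all genes tested were called lower. Pcna, the sliding clamp, also used in repair synthesis, had 362, 347 and 334 CPM at E9.5, 147, 109 and 105 CPM at E14.5 and 85.5, 62.2 and 89.7 CPM at P60. Its ages did not overlap and it fell in both steps (-1.53 ± 0.18, then -0.60 ± 0.18, adjusted p = 3.0e-05 and 0.010), the second not called under upper quartile scaling (-0.43, adjusted p = 0.056). Rfc1, the large loader subunit, had 207, 234 and 224 CPM at E9.5, 54.3, 53.5 and 58.4 CPM at E14.5 and 33.8, 39.8 and 30.8 CPM at P60. Its ages did not overlap, and it fell in both steps (-2.0 ± 0.14, then -0.67 ± 0.14, adjusted p = 4.8e-07 and 0.001). Rfc2, a small loader subunit, had 172, 151 and 154 CPM at E9.5, 99.6, 70.6 and 71.3 CPM at E14.5 and 54.2, 46.9 and 53.3 CPM at P60. Rfc4, another small subunit, had 73.5, 71.5 and 68.8 CPM at E9.5, 36.6, 21.1 and 21.2 CPM at E14.5 and 8.70, 6.08 and 8.54 CPM at P60. At P60 against E9.5 these marked the least and the greatest fall of the group, -1.63 ± 0.16 for Rfc2 and -3.20 ± 0.24 for Rfc4 (adjusted p = 3.2e-06 and 3.3e-07), and the ages of both were separated. The fall of Rfc2 at P60 against E14.5 (-0.64 ± 0.16, adjusted p = 0.0036) was -0.32 (0.12) under scaling by exon length, and Rfc2 shares 952 exon bases with Lat2 on the opposite strand. Rfc3 and Rfc5, the remaining small subunits, fell to 13.4% and 16.2% of E9.5 at P60. Unlike the origin complex, GINS and polymerase epsilon, the 5 loader subunits differed 2.00-fold per length at E9.5, 2.69-fold at E14.5 and 2.36-fold at P60 from highest to lowest.

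Lig1, the ligase that seals Okazaki fragments, had 432, 335 and 344 CPM at E9.5, 148, 85.6 and 89.2 CPM at E14.5 and 15.9, 17.3 and 15.5 CPM at P60. It fell in both steps (-1.78 ± 0.22, then -2.73 ± 0.23, adjusted p = 3.2e-05 and 1.3e-06), with no overlap of ages. Fen1, the flap nuclease, had 10.2, 7.76 and 6.57 CPM at E9.5, 3.13, 1.85 and 1.55 CPM at E14.5 and 1.10, 0.910 and 0.736 CPM at P60. It fell in both steps (-1.91 ± 0.29, then -1.25 ± 0.31, adjusted p = 1.8e-04 and 0.0039), but 1909 of its 2422 exon bases lie in Gm10143, an antisense gene, so its level is uncertain.

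RPA, the trimer that coats single-stranded DNA in replication and repair, held on unevenly, with Rpa1 and Rpa3 at 49.8% and 44.7% of E9.5 at P60 and Rpa2 at 14.8%. Rpa1, the large DNA-binding subunit (chromosome 11, 75298166 to 75348324), had 243, 257 and 249 CPM at E9.5, 90.5, 81.3 and 87.2 CPM at E14.5 and 123, 108 and 141 CPM at P60. E14.5 was lowest and no ages overlapped. Rpa1 fell by 1.53 ± 0.14 at E14.5 (adjusted p = 3.1e-06) and rose by 0.53 ± 0.14 at P60 against E14.5 (adjusted p = 0.0044), while staying below E9.5 (-1.01 ± 0.14, adjusted p = 3.6e-05). Rpa2, the subunit phosphorylated in the damage response, had 184, 146 and 142 CPM at E9.5, 62.3, 36.6 and 38.5 CPM at E14.5 and 22.6, 18.8 and 28.5 CPM at P60. Rpa3, the small subunit, had 39.3, 46.2 and 43.4 CPM at E9.5, 21.2, 15.8 and 17.2 CPM at E14.5 and 21.6, 13.7 and 22.4 CPM at P60. Rpa2 was separated between ages and fell again at P60 (-0.98 ± 0.23, adjusted p = 0.0028), whereas Rpa3 overlapped between E14.5 and P60 (0.09 ± 0.20, adjusted p = 0.70). The sign of Rpa3 rested on the processing: it was -0.69 (adjusted p = 9.2e-04) under scaling by exon length and 0.39 with 1 library of each age left out, both chosen after seeing the data. Leaving out those libraries removed the highest E14.5 and the lowest P60 value of Rpa3, so that fit is no test of a rise. Per length the RPA subunits differed 1.39-fold at E9.5, 1.04-fold at E14.5 and 2.86-fold at P60.

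Ribonucleotide reductase makes the deoxynucleotides. Rrm1, its large subunit, had 464, 439 and 445 CPM at E9.5, 196, 148 and 157 CPM at E14.5 and 27.5, 28.4 and 28.2 CPM at P60. Rrm2, the small subunit of S phase (chromosome 12, 24708241 to 24714146), had 519, 605 and 585 CPM at E9.5, 101, 111 and 116 CPM at E14.5 and 2.83, 2.5 and 2.27 CPM at P60. No ages overlapped for either. At P60 against E9.5 Rrm2 fell (-7.81 ± 0.19) and so did Rrm1 (-4.00 ± 0.16, adjusted p = 3.7e-10 and 2.3e-09).

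Ratios between 2 genes of the same library were compared for 8 pairs over the 3 ages with an exact permutation test of F over 1680 assignments, two-sided, whose smallest p is 0.0036. Values are mean log2 ratios of (CPM + 1) ± SD of 3 libraries at E9.5, E14.5 and P60, with p adjusted over the 8 pairs. The pairs were chosen with earlier results of these data known. Their p-values therefore describe how the ages separate in these libraries and give no independent support. The pseudocount of 1 CPM pulls ratios of low genes toward 0. Orc1 over Orc4 was -0.35 ± 0.27, -3.38 ± 0.10 and -5.37 ± 0.05 (exact permutation adjusted p = 0.0057). Its difference at P60 against E9.5, -5.02 with this pseudocount, was -6.41 with 0.1 CPM and -3.22 with 5 CPM. Mcm5 over Orc4, the ring against an origin subunit, was 3.45 ± 0.37, 1.12 ± 0.28 and -2.46 ± 0.11 (exact permutation adjusted p = 0.0057). Per kilobase of exon, Mcm5 stood at 136, 23.2 and 2.46 CPM and Orc4 at 6.62, 5.64 and 7.87 CPM at the 3 ages. The exact permutation adjusted p was also 0.0057 for the next 3 pairs. Rrm2 over Rrm1 was 0.34 ± 0.16, -0.59 ± 0.30 and -3.04 ± 0.14. Pole over Pole3 was 0.34 ± 0.50, -1.20 ± 0.88 and -4.89 ± 0.40. Pold1 over Pold2 was 1.17 ± 0.15, 0.42 ± 0.10 and -1.15 ± 0.05. In each of these 5 pairs the 3 libraries of P60 lay below all others. Mcm8 over Mcm2 was -3.07 ± 0.06, -2.86 ± 0.21 and 0.08 ± 0.10 (exact permutation adjusted p = 0.0095), with P60 above both embryonic ages. Cdt1 over Gmnn was 0.43 ± 0.12, 0.35 ± 0.32 and -1.91 ± 0.68 (exact permutation adjusted p = 0.037, and 0.095 with the replicate block). Pcna over Rfc1 was 0.65 ± 0.13, 1.09 ± 0.30 and 1.15 ± 0.46 and did not pass (exact permutation adjusted p = 0.20, and 0.046 without P60 replicate 2).

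**Figure D4:**
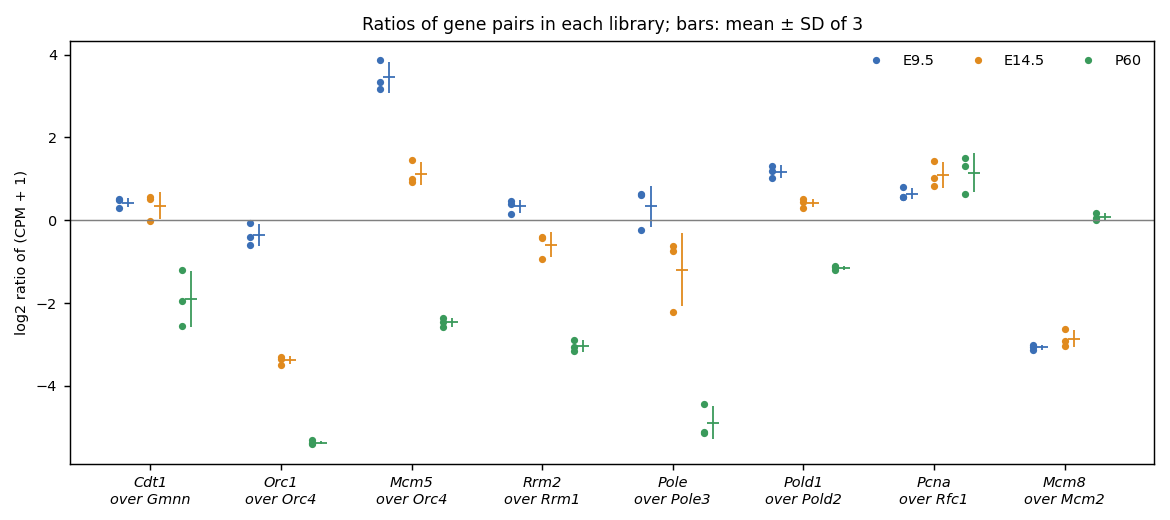
Log2 ratio of (CPM + 1) for 8 gene pairs, 1 point per library with the mean ± SD of the 3 libraries, at E9.5, E14.5 and P60. In 6 pairs the P60 points lie below 0, for Mcm8 over Mcm2 they sit at about 0, and for Pcna over Rfc1 the ages overlap.

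The wider replication pathway was read from 36 further genes of fork protection, accessory clamp loaders and chromatin assembly, whose counts can be set beside the shares of all genes given above. At E14.5 against E9.5, 31 were called lower and 2 higher, with a median log2 fold change of -1.35. At P60 against E14.5, 31 were lower and 3 higher (median -1.63), and at P60 against E9.5, 31 were lower and 3 higher (median -2.79). The largest falls at P60 against E9.5 were Clspn, the fork checkpoint adaptor claspin (-7.93, adjusted p = 4.5e-10), and Chaf1b and Chaf1a, subunits of the chromatin assembly factor that follows Pcna (-7.44 and -6.71, adjusted p = 1.3e-09 and 7.5e-09). The 3 rises were Pold4, the small subunit of polymerase delta (3.07, adjusted p = 1.5e-07), Rrm2b, the reductase subunit that serves repair and mitochondrial DNA outside S phase (2.57, adjusted p = 8.9e-07), and Rpain, an RPA import factor (0.99, adjusted p = 0.008). Rrm2b and Rrm2, the alternative small subunits of 1 enzyme, thus had opposite signs at P60 against E9.5.

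Libraries of 1 age differed by gene length, and this touches the short genes named above. Each library's departure from the other 2 of its age was set against exon length (median 4045 bases) over the 50 genes. Spearman's rho was -0.56, 0.46 and 0.62 for E9.5 replicates 1 to 3, -0.59, 0.52 and 0.60 for E14.5, and -0.40, 0.45 and -0.36 for P60. Over 17889 genes with a length the same values were -0.36, 0.27 and 0.31, -0.45, 0.43 and 0.39, and -0.29, 0.52 and -0.47, so the pattern was not particular to replication genes. E14.5 replicate 1 was high and P60 replicate 2 low for short genes such as Gmnn, Gins1, Orc6 and Pole3. Between ages, rho of the fold change with length over the 50 genes was -0.09 at E14.5 against E9.5, -0.28 at P60 against E14.5 and -0.23 at P60 against E9.5, and 0.05, -0.22 and -0.13 over all genes. The points share libraries and base composition, and the cause was not tested.

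**Figure D5:**
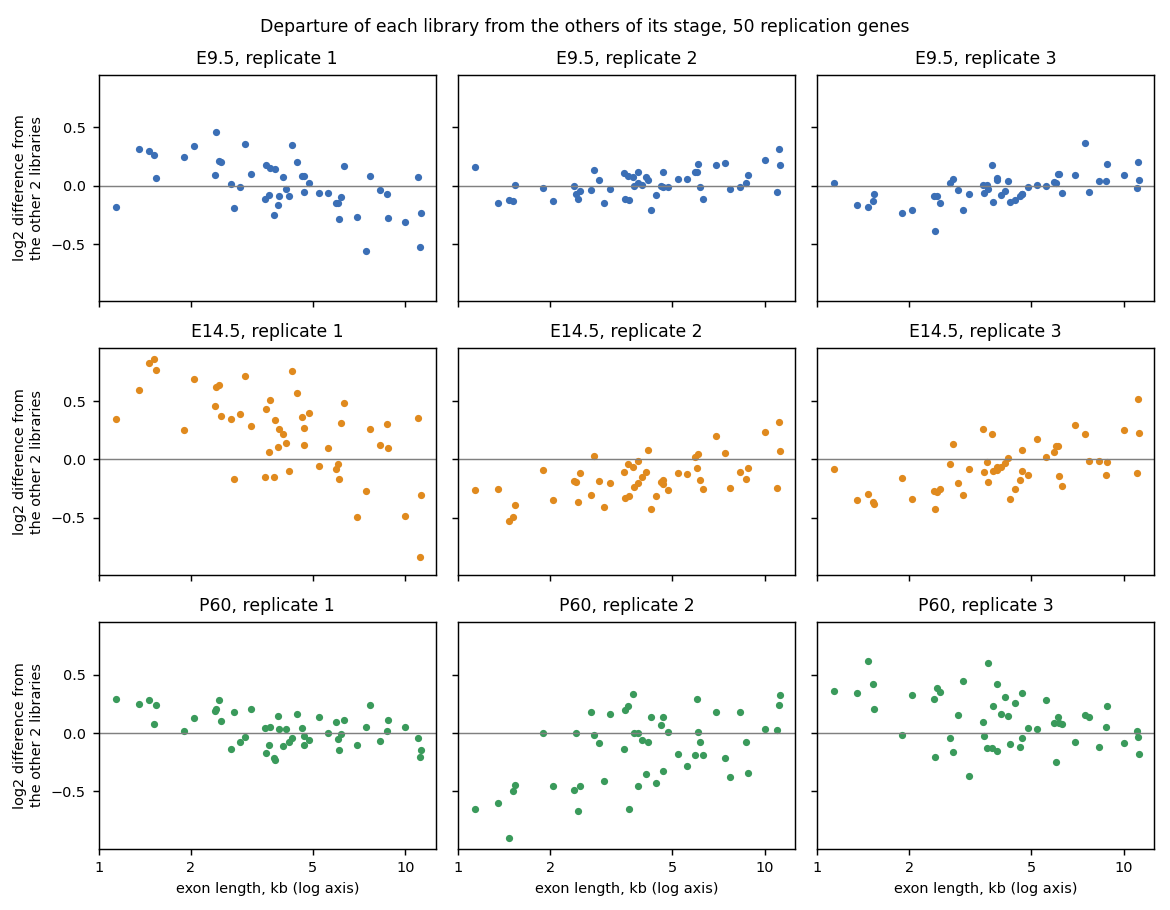
Log2 difference of each library from the mean of the other 2 of its age (vertical) against exon length in kilobases (log axis) for the 50 replication genes, 1 panel per library. Points slope down in replicate 1 of all ages and P60 replicate 3, and up in the other 5 libraries.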

How the data were processed

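The table as the authors deposited it gives whole-number read counts of each gene in the 9 libraries, with 0 columns of other samples. Per the labels' protocols, about a nanogram of RNA was made into cDNA with a poly(A)-primed, PCR-amplified low-input kit without molecular identifiers. Per the submitters' processing notes, Trimmomatic 0.36, STAR 2.5.2b and the mm10 genome were used. The counting program, annotation and strand setting are not given in the sources used here. Symbols, coordinates and exon lengths (union of exons) came from GENCODE M21 (GRCm38), which matched 45143 of 45706 identifiers.

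All 9 libraries were fitted once with edgeR 4.0.16 (R 4.3.3) by robust quasi-likelihood with TMM factors, genes kept by filterByExpr with stage as group, and no factor but stage, and p-values were Benjamini-Hochberg adjusted over 17971 genes at a threshold of 0.05. The common dispersion over all genes was 0.0394, a coefficient of variation of 19.9%. Counting error per library exceeded that common value at P60 for Ticrr, Orc1 and Cdc6, at 65.5%, 26.4% and 23.4%. The spread of single genes can differ from the common value. For Dbf4 at P60 the SD was 0.0781 around a mean of 1.61 CPM, with a counting error of 13.8%, so depth can limit precision in further genes with few reads. Correlations across genes were 0.98 to 0.995 within a stage and 0.61 to 0.857 between stages. The approximate SE divides the size of the log2 change by the root of its F statistic. Pair ratios used a pseudocount of 1 CPM and an exact permutation test (scipy 1.17.1). Intervals are exact (95%) and cover counting error only. Scripts were tested on simulated counts.

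The 50 genes, the gene lists, the pairs and the naming rule were chosen with earlier results of these data known. Values in every library are given for 33 genes: per role the lowest and highest change at P60 against E9.5, genes not called or called against the majority in a step, both genes of a pair, and the helicase core. Alternatives were median-of-ratios, upper quartile and total-count scaling, no filter, DESeq2 1.42.0, fits of 2 stages, a replicate block, other pseudocounts (0.1 and 5) for ratios and each library left out. Same-numbered libraries of E14.5 and E9.5 correlated in their deviations from the stage means at 0.141 to 0.37 (3 pairs), and differently numbered ones at -0.29 to 0.202. E9.5 replicate 2 correlated more with E14.5 replicate 3 (0.185) than with E14.5 replicate 2 (0.141). Same-numbered pairs with P60 ran from -0.224 to 0.337. Neither the labels nor these values establish pairing, and the replicate block, which in the fit of all libraries also used the P60 numbers, served only as an alternative. Added after seeing the data were a fit of E14.5 and E9.5 alone with the replicate block, leaving out E9.5 replicate 1, E14.5 replicate 1 and P60 replicate 2 together, and scaling within 10 classes of exon length. Promoters were RefSeq's (GRCm38.p6).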

Additional observations from a re-analysis of the deposited data

How the results depend on the processing

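Of 2750 values per gene, comparison and alternative, 2683 kept their direction and their side of the threshold, 31 lost the call, 21 gained it and 15 changed sign. At P60 against E14.5, scaling within exon-length classes turned Rpa3 (-0.69), Orc6 (-0.36), Gins4 (-0.16) and Orc2 (-0.03), and library totals turned Rpa3 (-0.05), Orc6 (-0.04) and Orc2 (-0.03). With 1 replicate left out Rpa3 ran from -0.04 to 0.28 and Orc6 from -0.05 to 0.33. At P60 against E9.5, exon-length scaling turned Pole4 (-0.06). Of these genes Gins4 alone was called in the fit reported. The genes called higher at P60 against E14.5 numbered 3 under library totals and under exon-length scaling, 3 to 5 with 1 replicate left out, and 7 with 1 library of each stage left out, where Orc6 and Rpa3 joined the 5. That last setting removed the libraries in which Orc6 and Rpa3 were highest at E14.5 and lowest at P60, so their calls under it are no test. At P60 against E9.5, 1 gene was called higher, Pole4, under median-of-ratios and upper quartile scaling, no filter, DESeq2, the fit of 2 stages, the replicate block and 1 library of each stage left out, and 1, Orc4, under exon-length scaling. With 1 replicate left out, 0 to 1 was. Leaving out 1 library of each stage removed the highest E9.5 and the lowest P60 value of Pole4, so its call there is no test. The replicate block changed 3 calls, Pole4 at E14.5 against E9.5 (E14.5 and E9.5 only), Pole3 at P60 against E14.5 and Pole4 at P60 against E9.5. With it, the log2 ratio of Cdt1 over Gmnn at P60 against E9.5 stayed at -2.33 but its adjusted p was 0.095. Pcna over Rfc1 ranged from 0.33 to 0.77 with 1 replicate left out and passed at 0.77. Causes were not tested. The median of all genes at P60 against E14.5 moved to 0.10 under upper quartile scaling and -0.20 under library totals.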

Other observations

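The E2F, Tfdp, pocket protein and Lin genes, which are known to control transcription of replication genes, were mostly lower with age. Of 15 genes, 12 were called lower and 2 higher at E14.5 against E9.5 (median log2 fold change -1.14), 12 lower and 2 higher at P60 against E14.5 (median -1.52), and 14 lower and 1 higher at P60 against E9.5 (median -2.56). Of all genes tested, 30.7%, 39.4% and 40.6% were called lower in these comparisons, and 64.6%, 76.1% and 82.6% in either direction. The largest falls at P60 against E9.5 were in E2f7 and E2f8, the atypical repressors (-10.00 and -8.74, adjusted p = 4.3e-10 and 2.8e-09), and in E2f2, an activator (-5.55, adjusted p = 5.7e-10). Rbl2, the pocket protein p130 of resting cells, was the 1 that rose at P60 against E9.5 (2.33, adjusted p = 9.4e-07). At E14.5 against E9.5 the pocket protein genes Rb1 and Rbl2 rose (1.59 and 1.85, adjusted p = 6.6e-04 and 1.3e-05). Rbl1, also a pocket protein gene, fell in that step (-0.62, adjusted p = 0.012). Rb1 fell at P60 against E14.5 (-2.32, adjusted p = 3.7e-05).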
